A study of Mus musculus with 12 samples.

Results

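The cortex of female mice homozygous for the Y446C allele of Tbl1xr1 was compared with that of wild-type females. The 6 female libraries of a series of 12 were taken by the sex and genotype in their labels: mutants 1, 3 and 6 (Tbl1xr1Y446C/Y446C) and wild types 2, 4 and 5. Each library was made with an mRNA kit from the total RNA of the frozen cortex of 1 mouse. All animals were C57BL/6J, aged 12 weeks and killed by exsanguination. Males of the same strain and age, 3 mutants (7, 10 and 27) and 3 wild types (8, 12 and 13), entered the same model and serve as a second pair of groups. The labels give the allele as a homozygous genotype, with no Cre driver or drug, and give neither the litters nor the origin of the wild types. The p-values measure the spread between these mice.

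Tbl1xr1 encodes a WD40-repeat subunit of the NCoR corepressor complexes. These complexes carry the histone deacetylase Hdac3 to genes held by unliganded nuclear receptors, such as those for thyroid hormone and retinoic acid, and by repressors such as Bcl6. Tbl1xr1 and its relative Tbl1x take part in exchanging corepressors for coactivators, and the Y446C change causes Pierpont syndrome, a developmental disorder, in people.

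The residue that the allele changes lies in exon 14 of 16 of the reference transcript (GENCODE M21, GRCm38, chr3:22203882-22203944, plus strand). The reference sequence around it is shown because every comparison here rests on this one site, with the tyrosine codon in capitals.

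Tbl1xr1: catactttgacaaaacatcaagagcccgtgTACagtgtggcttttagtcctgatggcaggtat

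A second set of sequences matters for reading the values below. The pseudogenes Gm10222 and Gm29216, which are among the genes with the smallest p-values in females, copy mitochondrial transcripts. The first 60 bases of the pseudogene Gm10222 (chr1:24612641-24612700, minus strand) and of mt-Nd4l (chrM:9877-9936, plus strand) are identical, as are all 294 aligned bases. In Gm29216 (chr1:24616129-24616188, minus strand) and mt-Co1 (chrM:6390-6449, plus strand), 1 of 483 aligned bases differs, and capitals mark it.

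Gm10222: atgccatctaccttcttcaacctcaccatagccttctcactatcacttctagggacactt

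mt-Nd4l: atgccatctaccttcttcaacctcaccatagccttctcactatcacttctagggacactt

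Gm29216: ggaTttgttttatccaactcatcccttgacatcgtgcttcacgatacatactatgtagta

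mt-Co1: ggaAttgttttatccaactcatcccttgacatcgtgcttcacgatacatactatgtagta

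Levels are given as CPM, counts scaled to a common library size by TMM, a scaling that assumes most genes do not differ. Female mutant 3 stood apart from the other libraries. It held 3748515 counts against 23665039 to 32669138 in the other female libraries, and 17349 genes with a count against 24346 to 26012 in the other 11. Mitochondrially encoded genes took 31.6% of its counts, 9.96% and 8.97% of those of mutants 1 and 6, and 5.23% to 7.89% of those of the female wild types. Male wild type 8, at 10.4%, also lay above the other male libraries (5.57% to 6.51%). A count of 0 allowed up to 1.16 CPM (from 3 counts) in mutant 3 and up to 0.137 CPM elsewhere, and these limits cover counting error alone. Counts and list medians are therefore given with mutant 3 and without it, and the log2 fold changes of single genes are without it unless a sentence says otherwise.

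Mutant 3 also differed by base composition. Relative to the female wild-type mean, the 3762 genes lowest in transcript GC content stood at a median log2 difference of 0.56 in mutant 3 and the 3762 highest at -1.10. Mutants 1 and 6 ran from 0.05 to -0.06 and from 0.06 to -0.09, close to female wild type 2 (0.04 to -0.05), while male wild type 8 ran from 0.14 to -0.14. Of the cortical cell markers, all 16 excitatory neuron markers were tested, with a summed level of 3340 to 4769 CPM in the 6 female libraries. The Y-linked Eif2s3y was at 0 to 0.275 CPM in females and at 37.8 to 54.8 CPM in males.

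**Figure D1:**
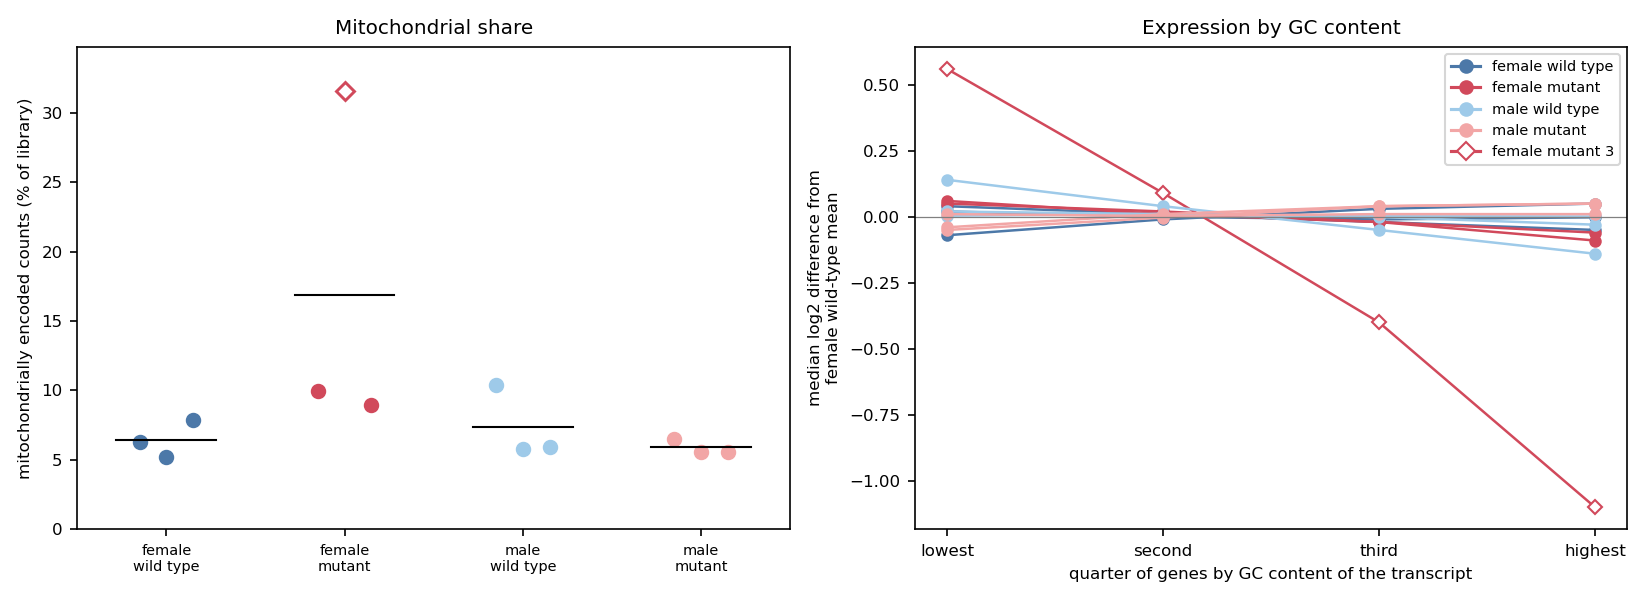
Left, the share of counts from mitochondrially encoded genes in each of the 12 libraries (percent, lines are group means); right, the median log2 difference from the female wild-type mean for genes in 4 classes of transcript GC content. Female mutant 3 (open diamond) lies at 31.6% mitochondrial counts and runs from 0.56 to -1.10 across the classes, while every other library stays within 0.14 of zero.

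With all 6 female libraries, no gene passed edgeR's quasi-likelihood test at a Benjamini-Hochberg adjusted p of 0.05. Of 18016 genes tested, 0 were called (0%), and 2127 (11.8%) had an unadjusted p under 0.05, 1437 higher (7.98%) and 690 lower (3.83%) in mutants. DESeq2 called 6 (0.0333%), limma-voom 0 and limma-voom with library weights 4 (0.0222%). Without mutant 3, edgeR called 0 of 18461 genes (0%), and 1737 (9.41%) had an unadjusted p under 0.05, 912 higher (4.94%) and 825 lower (4.47%). DESeq2 then called 15 (0.0813%; 8 higher, 0.0433%, and 7 lower, 0.0379%), limma-voom 0 and the weighted fit 1 (0.00542%). The female values below are therefore differences that did not pass edgeR's test. Genes that DESeq2 called are named as such.

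Groups that did not overlap were counted as well. In 1819 genes (10.1%) all 3 female mutants lay above all 3 wild types, and in 2241 (12.4%) they lay below. In males these counts were 1239 (6.88%) and 1193 (6.62%). Without mutant 3, 48.1% of all tested genes had a log2 fold change above 0 and 51.9% below 0 in females, and 51.1% and 48.9% in males, which are the shares to set beside the counts of higher and lower list members below. Among genes with an unadjusted p under 0.05 in females, those higher in mutants had a median transcript GC content of 44.4% and those lower 53.2%, against 49.2% over all tested genes. Without mutant 3 the medians were 47.1% and 53.3%, so the contrast in composition was smaller on the higher side and no smaller on the lower side.

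The mutated gene and its complex were read first. Tbl1xr1 stood at 108, 106 and 92.7 CPM in wild types 2, 4 and 5 and at 91.4, 95.2 and 97.9 CPM in mutants 1, 3 and 6. The groups overlapped, with a log2 fold change of -0.11 (SE 0.08) without mutant 3 and an edgeR adjusted p of 0.665. The 95% interval ran from -0.29 to 0.07. Counts carry no sequence, so they cannot check the genotype.

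Of the partners, Gps2, a small subunit that inhibits JNK signalling, differed most. It was at 8.41, 9.15 and 10 CPM in wild types and at 13.3, 27.1 and 15.5 CPM in mutants. All mutants lay above all wild types, and the log2 fold change was 0.92 (SE 0.25, adjusted p = 0.418 with edgeR) with mutant 3 and 0.65 (SE 0.18, adjusted p = 0.516) without it. Male wild type 8 read 15.6 CPM, as high as female mutants 1 and 6, while the other 5 male libraries read 8.85 to 11.5 CPM.

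Ncor1, the scaffold of the complex, was at 309, 306 and 328 CPM in wild types and 339, 566 and 371 CPM in mutants. Its log2 fold change was 0.43 with mutant 3 and 0.18 (SE 0.08) without it, and its exons overlap Pigl and Ttc19 on the other strand. Other members, without mutant 3, gave -0.19 for Hdac3, the deacetylase, and -0.01 for Tbl1x. Of the 6 genes 0 were called, and their median was 0.01, against -0.01 over all genes, and turned to -0.05 when libraries were scaled by their totals.

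Mpeg1, the pore-forming perforin-2 of macrophages and microglia, had the smallest p-value of the named genes. It read 23.2, 23.6 and 29.1 CPM in wild types and 13.2, 7.36 and 12.9 CPM in mutants. The groups did not overlap, and the mutants with normal depth stood at 0.516 of the wild-type level. The log2 fold change was -1.09 (SE 0.18, edgeR adjusted p = 0.418) with mutant 3. Leaving mutant 3 out made it smaller but tighter, at -0.95 (SE 0.13, 95% interval -1.24 to -0.66, adjusted p = 0.128). DESeq2 called it in both fits, with an adjusted p of 9.66e-07 without mutant 3, and over the 22 alternatives to that fit its adjusted p ranged from 7.79e-08 to 0.508.

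Bcl6, a zinc-finger repressor that itself recruits NCoR complexes, was higher in mutants. Its levels were 32.3, 27.9 and 31.0 CPM in wild types and 40.2, 45.3 and 44.7 CPM in mutants, with no overlap. Without mutant 3 the log2 fold change was 0.48 (SE 0.09, edgeR adjusted p = 0.454), and DESeq2 called it in both fits. Gm37419 lies on the opposite strand of Bcl6, so reads of the 2 cannot be told apart where counting ignores strand.

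Tgfb2, a ligand of the TGF-beta receptors, read 22.9, 20.4 and 17.1 CPM in wild types and 28.5, 30.6 and 38.9 CPM in mutants. All mutants lay above the wild types, and mutant 3 lay between the other mutants. The log2 fold change was 0.74 (SE 0.14, adjusted p = 0.486) without mutant 3 in edgeR's test. DESeq2 called it in both fits, and Gm29491 overlaps it on the other strand. The other 24 TGF-beta ligands, receptors and Smads held no gene at an unadjusted p under 0.05, and the median over all 25 was 0.04, or -0.02 when libraries were scaled by their totals.

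Gucy1a2, a subunit of the soluble guanylate cyclase that answers nitric oxide, was lower. It read 27, 23.9 and 25.5 CPM in wild types and 18.8, 20.1 and 16.8 CPM in mutants. Here mutant 3 was not the farthest mutant, and the log2 fold change was -0.47 (SE 0.12) with it and -0.52 (SE 0.10, edgeR adjusted p = 0.516) without it. DESeq2 called the gene only without mutant 3, with an adjusted p of 0.0289.

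Srebf1 encodes SREBP-1, a driver of fatty acid synthesis and a target of the nuclear receptor LXR. It read 26.3, 31.8 and 26.7 CPM in wild types and 19.9, 6.97 and 19.1 CPM in mutants. Mutants 1 and 6 lay close together below the wild types, and mutant 3 was far lower. Without mutant 3 the log2 fold change was -0.54 (SE 0.11, edgeR adjusted p = 0.516), and DESeq2 called it. Rai1 overlaps Srebf1 on the opposite strand.

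Bok, a pro-apoptotic member of the Bcl-2 family, read 14.9, 17.4 and 12.7 CPM in wild types and 8.37, 1.94 and 8.41 CPM in mutants. Its log2 fold change without mutant 3 was -0.84 (SE 0.17, edgeR adjusted p = 0.516), and DESeq2 called it. Its groups did not overlap, in common with Srebf1, Slc41a1 and Ephb6, which DESeq2 also called. In the last 3 genes mutant 3 was the lowest library by a wide margin, at 6.97, 19 and 13.9 CPM. Bok in mutant 3, at 1.94 CPM, was also far below the other female mutants and near the 1.16 CPM limit of that library.

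**Figure D2:**
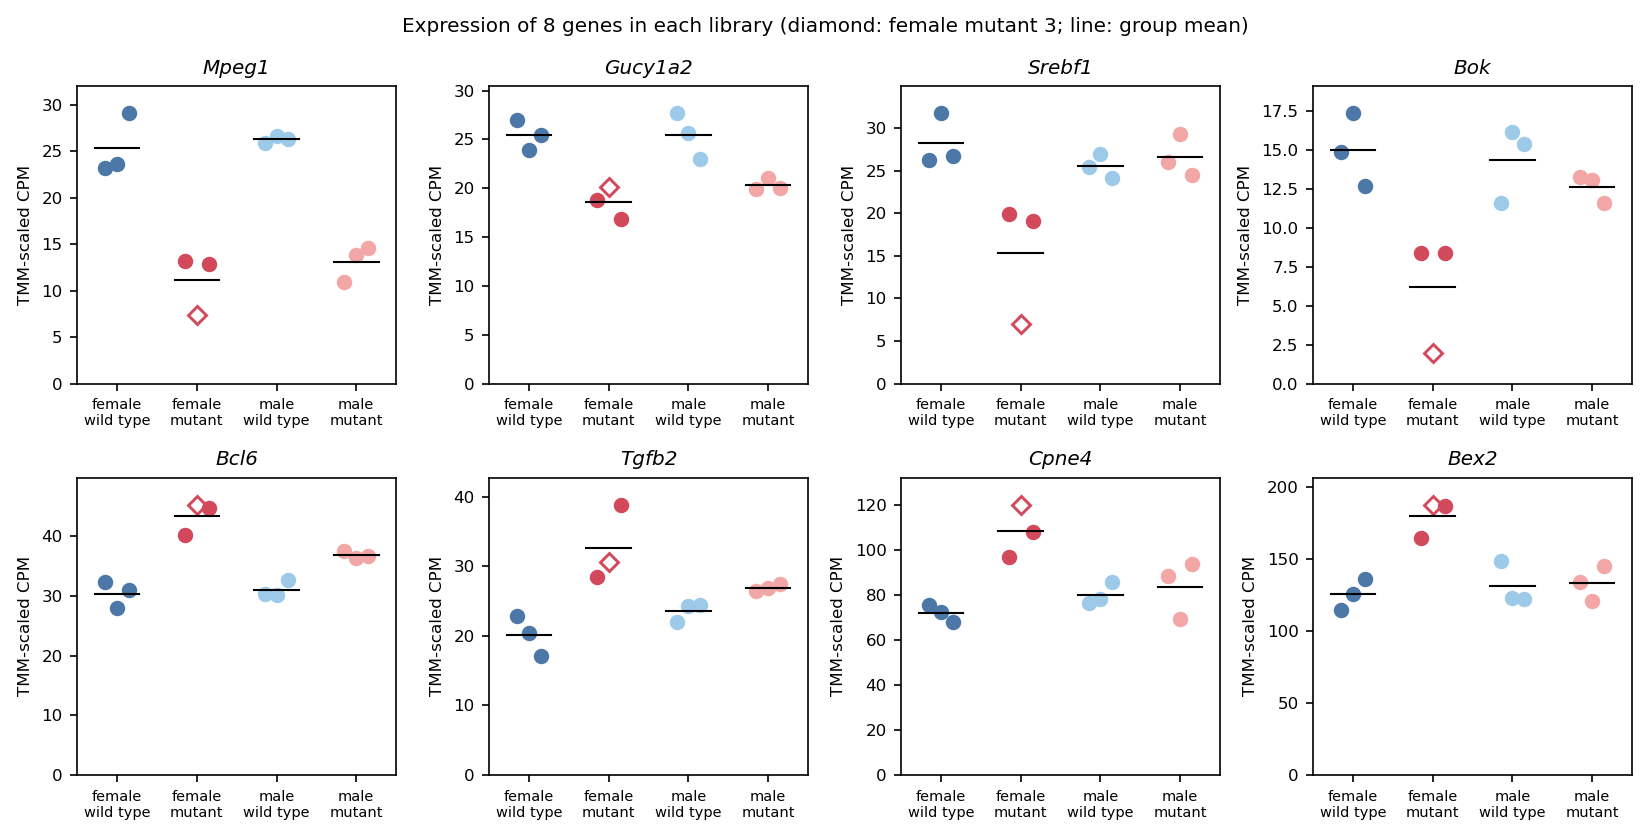
TMM-scaled CPM of 8 genes in each library, by sex and genotype; points are mice, the open diamond is female mutant 3 and lines are group means. In the top row the 3 female mutants lie below the 3 female wild types, and in the bottom row above them, while among males only Mpeg1, Gucy1a2, Bcl6 and Tgfb2 separate by genotype in the same direction.

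The other genes named by rank span several functions. Without mutant 3, those higher in mutants were Zfp608 (a zinc-finger protein that DESeq2 called, log2 fold change 0.50), Polr3gl (an RNA polymerase III subunit, 0.39), Bex2 (an X-linked adaptor, 0.49) and Cpne4 (a calcium-dependent lipid-binding copine, 0.51). Ldb2 and Cited2, both transcriptional cofactors, gave 0.48 and 0.40, and Rere, a corepressor of the atrophin family, gave 0.30. Cdh2, or N-cadherin, gave 0.36, the Hsp70 and Hsp90 co-chaperone Stip1 gave 0.42, and Tspyl2, an X-linked nucleosome assembly protein, gave 0.55.

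Those lower included Slc41a1 (a magnesium transporter, -0.43), Zfp467 (-0.56) and Ephb6 (an Eph receptor without kinase activity, -0.66). Necab3, a calcium-binding protein, gave -0.48, the EGF receptor ligand Hbegf gave -0.59, cyclooxygenase-1 (Ptgs1) gave -0.54 and the proteoglycan brevican (Bcan) gave -0.39. With mutant 3 the values were larger for Tspyl2 (1.05), Bcan (-0.72) and Slc41a1 (-0.67). Of the 12 genes in each direction, all 3 mutants lay outside the wild-type range in 11 of those higher and 12 of those lower, a separation that their choice against the same wild types favours.

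Ranking with mutant 3 included brought in other genes. The log2 fold changes in this paragraph and the next are with mutant 3 unless a sentence says otherwise. Those higher included Cdkn1c, the imprinted cell cycle inhibitor p57 (4.94, 3.87 and 4.33 CPM in wild types, 6.33, 12.4 and 10.3 CPM in mutants). Stxbp6, which binds SNARE proteins, Celf4, an RNA-binding protein, and Dzip1, a ciliary protein, had log2 fold changes of 0.54, 0.61 and 0.41. In 11 of the 12 higher genes mutant 3 was the farthest of the mutants from the wild-type mean, and in 7 of the 12 lower ones.

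On the lower side these were Lsp1 (a leukocyte actin-binding protein, -1.24), Pamr1 (-0.68), Asic4 (of the acid-sensing channel family, -1.09, called by DESeq2 without mutant 3), Hfe (an iron regulator, -0.67), Cbr3 (a carbonyl reductase, -1.04) and Adgrg6 (an adhesion receptor, -0.74). Rara, the retinoic acid receptor alpha and a partner of the complex, gave -0.64. Rara read 7.59, 8.59 and 9.10 CPM in wild types and 4.91, 5.42 and 5.89 CPM in mutants, and its log2 fold change was also -0.64 without mutant 3. All 24 genes had an adjusted p of 0.418 in edgeR.

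Mitochondrially encoded genes were higher in female mutants as a group. Without mutant 3, 12 of 12 tested members were higher, 10 of them at an unadjusted p under 0.05, with a median log2 fold change of 0.71, and with mutant 3 the median was 1.69. In males the median was -0.39. The sum over the list was 50536, 42875 and 68203 CPM in female wild types, 88589, 433380 and 80958 CPM in mutants, and 95101 CPM in male wild type 8 against 44203 to 53774 CPM in the other males. mt-Co2, a cytochrome oxidase subunit, was the member that DESeq2 called without mutant 3 (69.3, 59.7 and 78.2 CPM in wild types, 99.8, 310 and 120 CPM in mutants). The pseudogene Gm28661 is identical to mt-Co2 over 681 aligned bases. It read 48.1, 42.1 and 93.8 CPM in female wild types and 126, 187 and 81.2 CPM in female mutants. How reads were divided between mt-Co2 and this copy is uncertain.

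Nuclear copies of these transcripts were examined next. Genes outside the mitochondrial genome with at least 90% identity to a mitochondrial transcript numbered 15, of which 11 were tested. In female mutants 10 of these 11 were higher without mutant 3, 6 of them at an unadjusted p under 0.05, with a median of 1.03. With mutant 3 all 11 were higher, with a median of 1.88, and in male mutants 0 were higher, with a median of -0.70. Male wild type 8 was the highest male library for the tested copies other than Gm28437, Gm28661 and Gm29216. Gm10925 read 175 CPM there and 57.7 and 91.9 CPM in male wild types 12 and 13. In male mutants it read 49.8 to 71.5 CPM. Reads of such a copy and of the mitochondrial transcript share their sequence, so which of them was transcribed is uncertain.

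Gm10222, the identical copy of mt-Nd4l shown above, read 2.58, 2.36 and 3.24 CPM in wild types and 10.7, 28.3 and 11.6 CPM in mutants. Gm29216, the copy of mt-Co1, read 23.0, 19.9 and 34.8 CPM in wild types and 105, 68.5 and 109 CPM in mutants. Unlike the mitochondrial genes, Gm29216 was lowest among the mutants in mutant 3, and male wild type 8 read 28.7 CPM, below male wild types 12 and 13 at 39.8 and 73.9 CPM. Their log2 fold changes without mutant 3 were 2.03 and 2.04, against 0.50 for mt-Nd4l and 0.42 for mt-Co1. DESeq2 called both copies in both fits.

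Genes of the respiratory chain that are encoded in the nucleus went the other way. Without mutant 3, 33 of 37 were lower, 12 of them at an unadjusted p under 0.05, with a median of -0.17, and 1 was higher at that level. With mutant 3, 30 were lower and the median was -0.33. Examples were Uqcrfs1, the Rieske protein of complex III (-0.46), and Atp5e, a subunit of ATP synthase (-0.88), while Uqcrb of complex III was higher (0.42). In males 36 of 37 were higher, with a median of 0.12. Their sum was 3833 CPM in male wild type 8 and 4346 and 4411 CPM in male wild types 12 and 13. Male mutants ranged from 4345 to 4779 CPM. With the mitochondrial share of each library as a covariate the female median was -0.01, and that of the mitochondrially encoded genes was 0.03. That share is counted from the mitochondrially encoded genes themselves. In females it also separated the genotypes, at 5.23% to 7.89% in wild types and 8.97% to 31.6% in mutants. The covariate therefore cannot tell genotype from that share, here or in the lists below. Of 43 cytosolic ribosomal proteins, 29 were lower and 14 higher in females without mutant 3, with 2 lower and 9 higher at an unadjusted p under 0.05. Their median was -0.09 without mutant 3 and -0.31 with it, against 0.15 in males. The ribosomal sum was 3852 CPM in male wild type 8 and 4230 and 4452 CPM in male wild types 12 and 13. In male mutants it ranged from 4376 to 4630 CPM.

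All 11 members of the Bex and Tceal family, small X-linked proteins of neurons, were higher in female mutants. Their median was 0.35 without mutant 3 (8 at an unadjusted p under 0.05) and 0.52 with it, against 0.02 in males. Bex2 read 115, 126 and 136 CPM in wild types and 165, 188 and 187 CPM in mutants. Bex1 and Bex4 gave 0.41 and 0.48, and Bex1 overlaps Tceal7. The summed family read 485, 491 and 567 CPM in wild types and 626, 1148 and 702 CPM in mutants, and 598 CPM in male wild type 8, the highest male library. With the mitochondrial share as a covariate and without mutant 3 the median was 0.18.

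Imprinted genes, which are expressed from 1 parental allele, had 26 of 31 tested members higher without mutant 3. Their median was 0.21, with 10 higher and 1 lower at an unadjusted p under 0.05. It was 0.24 with mutant 3 and 0.13 in males. The list sum was 7362, 7055 and 6551 CPM in female wild types and 7832, 12444 and 7748 CPM in female mutants. Male wild type 8 was the highest male library, at 8661 CPM against 7070 to 8058 CPM in the other males. Zim1, a zinc-finger gene, read 14.5, 11.9 and 9.14 CPM in wild types and 19.2, 21.7 and 17.8 CPM in mutants, and it gave 0.64 in females and 0.50 in males. Zrsr1, a splicing factor relative within Commd1, gave 0.33 in females and -0.02 in males. With the mitochondrial share as a covariate the list median was 0.09.

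Cytosolic chaperones were higher by small amounts. All 15 gave a positive log2 fold change without mutant 3, 7 of them at an unadjusted p under 0.05, with a median of 0.20, against 0.04 in males. With mutant 3, 11 were higher and 4 lower, and the median was 0.32. Hspa8, the constitutive Hsp70, read 1743, 1557 and 1726 CPM in wild types and 2039, 2154 and 2008 CPM in mutants. Hsph1, an Hsp110, and Bag3, an Hsp70 co-chaperone, gave 0.30 and 0.39, and Bag3 gave 0.43 in males.

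Of the 20 genes of endoplasmic reticulum stress, 16 were higher, with a median of 0.20 without mutant 3 and -0.001 in males. With mutant 3, 13 were higher and the median was 0.19, and it turned to -0.01 when libraries were scaled by their totals, a setting that moved the median of all genes from -0.03 to -0.21 with mutant 3 and from -0.01 to -0.07 without it. The lumenal chaperones Calr, Hsp90b1 and Pdia3 gave 0.30, 0.29 and 0.23. With the mitochondrial share as a covariate and without mutant 3, the cytosolic and reticulum lists kept medians of 0.23 and 0.29.

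Among targets of the nuclear receptors that use the complex, the thyroid hormone list was mostly lower in both fits. The LXR and PPAR list was split in direction without mutant 3 and mostly lower with it. Of 16 genes induced by thyroid hormone in brain, 5 were higher and 11 lower without mutant 3, 3 of these at an unadjusted p under 0.05, with a median of -0.18. With mutant 3, 4 were higher and 12 lower, with a median of -0.26. Sema7a, a semaphorin, read 129, 156 and 159 CPM in wild types and 113, 40.3 and 96.4 CPM in mutants, without overlap, and gave -0.50. Dbp, a clock-controlled factor whose exons overlap Sphk2, gave -0.47, and the corepressor Hr gave -0.38. In males the list median was -0.03, and the test of the difference between the sexes gave 0 of the 16 genes an unadjusted p under 0.05.

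Of 20 targets of LXR and PPAR, 9 were higher and 11 lower, with 2 and 5 at an unadjusted p under 0.05 and a median of -0.07 without mutant 3. With it, 4 were higher and 16 lower, with a median of -0.18. Beside Srebf1, Cyp4f14, a fatty acid hydroxylase, was lower (-0.47), and Pdk4, a kinase that inhibits pyruvate dehydrogenase, was higher (0.40). Notch targets had a median of -0.11 without mutant 3 and -0.38 with it, and Wnt targets -0.08 and -0.09. The EGF and neuregulin list had medians of -0.17 and -0.15, and its 1 member at an unadjusted p under 0.05 without mutant 3 was Hbegf (11, 9.87 and 12.9 CPM in wild types, 7.39, 7.74 and 7.48 CPM in mutants).

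Among neuronal genes, voltage-gated channels had 7 higher and 23 lower members of 30, with 4 lower at an unadjusted p under 0.05 and a median of -0.08 without mutant 3. With mutant 3 they were 14 and 16, with a median of -0.03, and in males 4 and 26, with a median of -0.11. Cacna1g, a T-type calcium channel, read 82.6, 97.4 and 66.3 CPM in wild types and 58.9, 21.7 and 48.8 CPM in mutants, and gave -0.61 (SE 0.15). Of the GABA list, 1 of 19 was higher and 5 were lower at an unadjusted p under 0.05 without mutant 3 (median -0.04), and 4 and 4 with it (median 0.07). Gad1, which makes GABA, gave -0.31 in females and -0.22 in males, with no overlap of the groups in either sex. Gabrb1, a receptor subunit, was higher (0.29) and overlaps Gabra4.

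Glutamate receptors had a median of 0.03 (-0.04 when libraries were scaled by their totals), with 1 of 22 lower at an unadjusted p under 0.05 without mutant 3, and with it 0.07 and 2 of 22. The 1 gene was Grm2, a presynaptic metabotropic receptor (25.7, 26.3 and 22.1 CPM in wild types, 14.9, 4.65 and 19 CPM in mutants). Immediate-early genes, which follow neuronal activity, had a median of -0.06 without mutant 3, -0.14 with it and 0.26 in males. Of these, Jun and Nr4a2 gave 0.52 and 0.71, and Nr4a2 read 101 CPM in male mutant 27, within the range of the female mutants (67.5 to 136 CPM). The noradrenaline receptor Adra1a gave -0.40 in females and -0.38 in males.

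Striatal markers were read beside the neuronal lists. All 17 were lower without mutant 3, with a median of -0.66, and 16 were lower with it, with a median of -0.56, and the male median was -0.89. Their summed level was 961, 1536 and 2793 CPM in female wild types and 1317, 1641 and 809 CPM in mutants, so the groups overlapped. It ranged from 796 to 1916 CPM in male wild types and from 470 to 1011 CPM in male mutants. Without mutant 3, 1 member had an unadjusted p under 0.05 in females, the sodium channel subunit Scn4b, and with it 2 did. How far unequal inclusion of striatum enters the neuronal lists was not tested.

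Among glial lists, microglial markers were mostly lower, while astrocyte and oligodendrocyte markers were mixed in direction. Of 15 microglial markers, 4 were higher and 11 lower without mutant 3, with 4 lower at an unadjusted p under 0.05 and a median of -0.15. With mutant 3, 2 were higher and 13 lower, with a median of -0.27. Their summed level was 415, 416 and 461 CPM in wild types and 406, 347 and 392 CPM in mutants, without overlap. Relative to the wild types this gap was far smaller than that of Mpeg1, which is itself 1 of the 15 markers. Trem2, a lipid receptor of microglia, gave -0.58 (SE 0.17) and Cx3cr1, the fractalkine receptor, -0.24. In bulk tissue, fewer cells of a type and less RNA per cell cannot be told apart.

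Of 14 astrocyte markers, 4 were higher and 3 lower at an unadjusted p under 0.05 without mutant 3, with a median of -0.04, and 3 and 3 with it, with a median of 0.09. Gfap, the intermediate filament that marks reactive astrocytes, read 154, 135 and 113 CPM in wild types and 206, 142 and 205 CPM in mutants. Mutants 1 and 6 lay above the wild types and mutant 3 among them, and the log2 fold change without mutant 3 was 0.62 (SE 0.16) in females and 0.51 in males. Gja1, a gap junction protein, gave 0.29. Oligodendrocyte markers had 0 of 13 at an unadjusted p under 0.05 without mutant 3 and 1 with it.

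The complement list had a median of -0.01 without mutant 3 and 0.07 with it, and the interferon list 0.19 and 0.05. Of the 18 interferon genes, 0 were higher and 1 lower at an unadjusted p under 0.05 without mutant 3. Their male median was 0.23. The interferon sum was 99.5, 104 and 86.3 CPM in female wild types and 130, 81.3 and 84.3 CPM in mutants 1, 3 and 6. C4b read 18.6, 20.5 and 14.1 CPM in wild types and 26.1, 3.87 and 23.5 CPM in mutants, so that mutants 1 and 6 lay above the wild types and mutant 3 far below, and it gave 0.48 without mutant 3 and 0.65 in males. C1ra, a complement protease, gave -0.88 in females and -1.42 in males.

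Without mutant 3, cholesterol synthesis (22 genes), the circadian clock (18) and adrenergic and cGMP signalling (20) had medians of -0.03, -0.03 and -0.05, and neuropeptides (17) had -0.14 with 0 genes at an unadjusted p under 0.05. Endothelial and mural markers (16) and meningeal markers (14) had medians of -0.07 and -0.10, with 2 lower at that level in each. With mutant 3 these 6 medians were -0.16, -0.07, -0.01, -0.12, -0.14 and -0.13. Border macrophage and leukocyte markers had a median of -0.17 over the 12 of 16 tested, and -0.30 over 11 with mutant 3, and 9 of the 16 were at 0 in at least 1 female library.

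**Figure D3:**
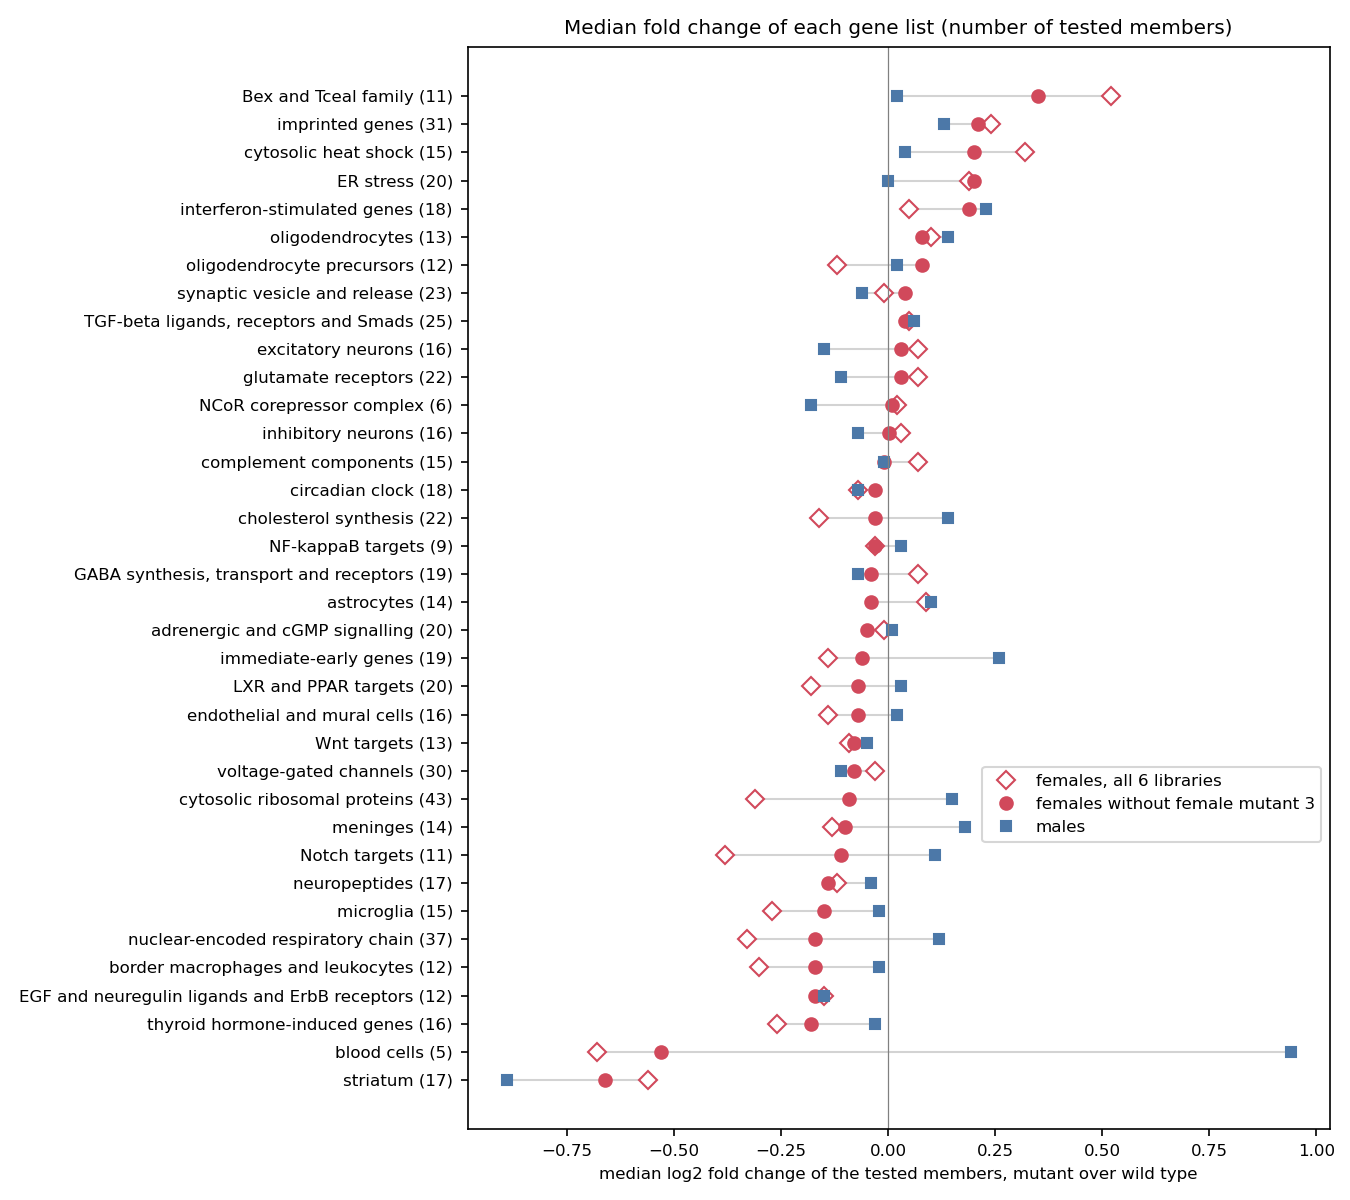
Median log2 fold change (mutant over wild type) of the tested members of each pathway and cell type list and of the striatal list, for females with all libraries (open diamonds), females without mutant 3 (filled circles) and males (squares), with the number of members tested without mutant 3. The Bex and Tceal family lies at 0.35 without mutant 3 against 0.02 in males, and blood cell markers lie at -0.53 against 0.94.

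The female effect was then set against the male one. The difference of the 2 effects was called by edgeR in 0 of 18016 genes (0%) with mutant 3 and in 0 of 18461 (0%) without it. At an unadjusted p under 0.05 there were 1381 (7.67%) and 1956 (10.6%), and limma-voom called 0 in both. DESeq2 called the same 4 genes in each (0.0222% with mutant 3, 0.0217% without): Gm10222 and Gm29216, higher in female than in male mutants relative to their wild types, and the globins Hbb-bs and Hba-a1, lower. Limma-voom with library weights called 1 with mutant 3 (0.00555%), Gm29216, and 0 without it. Female and male effects use different animals, with no shared control.

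Globin transcripts, most abundant in red blood cells, differed in opposite directions in the sexes. Hbb-bs read 27.2, 24.3 and 21.8 CPM in female wild types and 19.1, 9.29 and 11.9 CPM in female mutants. In males it read 11.5, 17.6 and 13.2 CPM in wild types and 32.4, 27 and 24.6 CPM in mutants. The groups did not overlap in either sex, and without mutant 3 the difference of the effects was -1.65 (SE 0.29, edgeR adjusted p = 0.459). Of the blood list, 5 of 5 tested members were lower in females (median -0.53 without mutant 3, -0.68 with it) and 5 of 5 higher in males (median 0.94). Without mutant 3, 1 of the 5 had an unadjusted p under 0.05 in females and 5 did in males. All 3 female mutants lay below the wild types in 1 of the 5, and all 3 male mutants above in 4.

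By smallest p-value without mutant 3, the genes named for this difference were also, on the lower side, Tmem60 (a membrane protein), Slc16a1 (the lactate transporter MCT1) and Cadm4 (a cell adhesion molecule), and on the higher side for Ccdc181, Ccbe1, Palb2, Pibf1 and Prrt1. Tmem60 read 15.1, 13.1 and 12.4 CPM in female wild types and 8.92, 3.10 and 9.52 CPM in female mutants, and gave -0.55 in females and 0.28 in males. Prrt1, a protein associated with AMPA receptors, gave 0.50 in females and -0.24 in males, where male wild type 8 read 154 CPM and the other 5 males 97.1 to 110 CPM. All 10 genes had an edgeR adjusted p of 0.459.

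Over all tested genes, 46.2% had the same sign in both sexes without mutant 3. Among genes at an unadjusted p under 0.05 in females this share was 41.6% for those higher and 44% for those lower. With mutant 3 the shares were 38%, 26.2% and 42.3%, and no gap between them was tested. The named genes differed among themselves. Without mutant 3, 10 of the 12 higher and 10 of the 12 lower had the same sign in males, and in 4 of each 12 the male groups also did not overlap in that direction, against 6.88% above and 6.62% below over all genes. The named genes were chosen by p-values whose spread also draws on the male libraries. The shares over all genes are therefore not a matched background for them.

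Mpeg1 was lower by like amounts in females and males (-0.95 and -1.0), and the difference of the effects was 0.04 (SE 0.18, 95% interval -0.34 to 0.42). In males edgeR called it (adjusted p = 0.0338), the 1 gene called of 18461 (0.00542%) for the male effect when female mutant 3 was left out. With that library kept, its adjusted p in males was 1. Gucy1a2 gave -0.52 and -0.33, and Bcl6 gave 0.48 and 0.25, with male groups that did not overlap. Srebf1 gave -0.54 in females and 0.06 in males, and Hbegf -0.59 and -0.002, with edgeR adjusted p of 0.459 for both differences. Bcan gave -0.39 and 0.14. For these 3 genes the sexes pointed apart or one was near 0, but the difference did not pass the test.

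**Figure D4:**
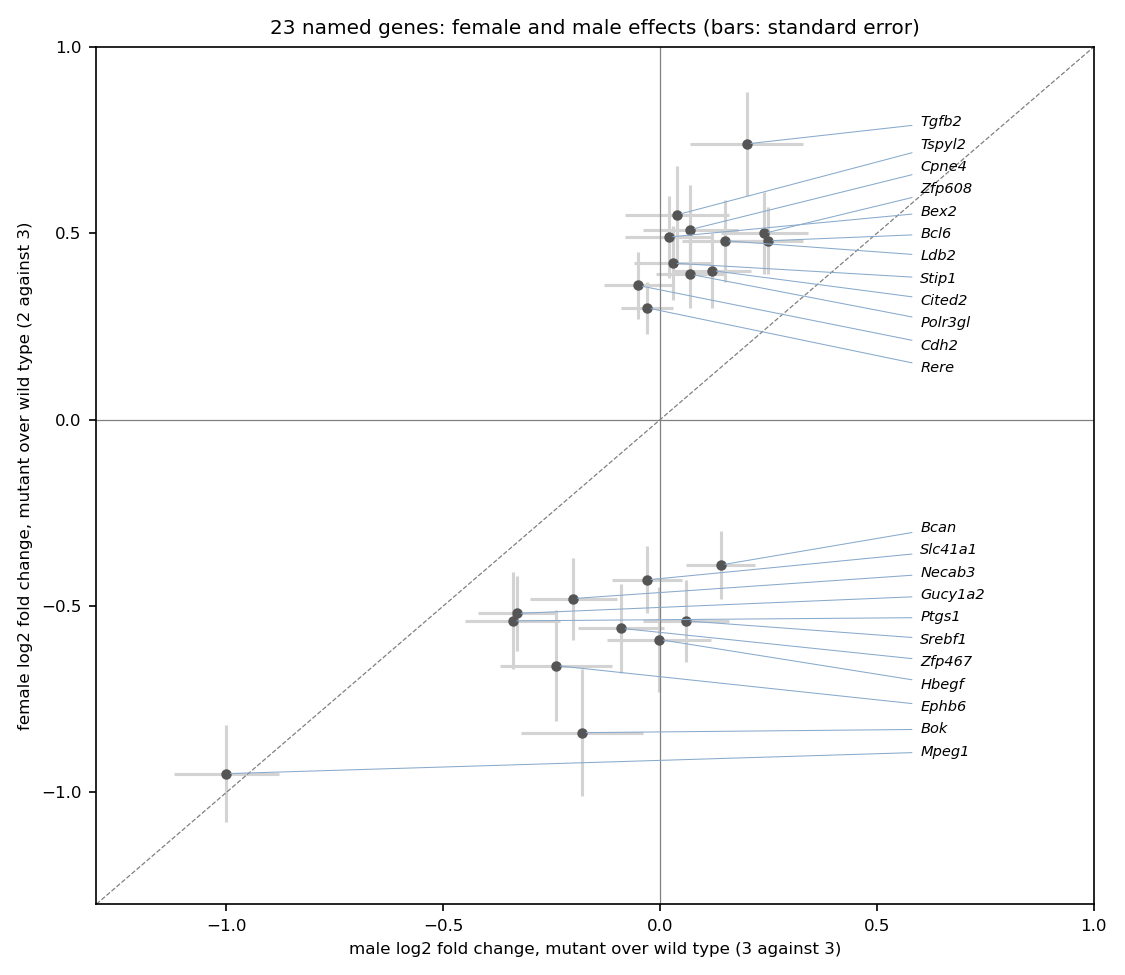
Log2 fold change (mutant over wild type) in females without mutant 3, vertical, against that in males, horizontal, for 23 genes named by rank, with standard errors as bars. Mpeg1 lies near the dashed line of equal effects at -0.95 and -1.0, while Srebf1, Hbegf and Bex2 lie near 0 in males.

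A further 2 genes without a standard symbol were called by DESeq2 beside those above and were singled out after their values were seen. 2900052N01Rik read 40.7, 42.0 and 39.4 CPM in female wild types and 64.4, 186 and 86.1 CPM in mutants, and its log2 fold change without mutant 3 was 0.89 (SE 0.13, edgeR adjusted p = 0.128) in females and 0.58 in males. Both sexes separated by genotype at this gene (chromosome 9, 46913493 to 46927366). Gm4617 read 2.68, 2.64 and 2.35 CPM in wild types and 4.84, 13.9 and 5.18 CPM in mutants, and gave 0.97 in females and -0.24 in males.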

How the data were processed

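The deposited values are unnormalized whole-number counts of reads for each gene in each library. Per the submitters' processing notes the tools were Trimmomatic 0.36, HISAT2 2.1.0, HTSeq 0.11 and Cufflinks, with build GRCm38.p6. How strand was treated, and which annotation was counted, is not given in the sources used here, and genes with exons that overlap on the other strand are therefore named as uncertain. Of 54232 identifiers, 54165 matched GENCODE M21. Genes kept by filterByExpr received TMM factors and entered edgeR 4.0.16 (R 4.3.3; quasi-likelihood, 1 mean per group over 12 libraries, or 11 without female mutant 3), with Benjamini-Hochberg adjustment over all tested genes and a threshold of 0.05. Fold changes printed without a fit named beside them are from the fit without female mutant 3. Those of the genes brought in by ranking with that library included are from the fit with it. The procedure was tested on simulated data, drawn without the base composition or the mitochondrial excess of female mutant 3.

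Named genes were the complex, the 12 of smallest p in each direction in each fit (mean of at least 1 CPM, standard symbol), up to 3 members of smallest p per list and the 5 of smallest p in each direction of the sex difference. The members of 43 gene lists, and the comparison itself, were chosen with earlier results of these data known. Pseudogene copies were found with blastn 2.17.0 (at least 90% identity, 150 bases and 50% of the transcript). Alternatives were DESeq2 1.42.0, limma-voom (limma 3.58.1) with and without library weights, RLE scaling, library totals, no filter, 1 CPM in 3 libraries, females alone, mitochondrial genes left out, the mitochondrial share as a covariate and leaving out each library. Added after the data were seen were offsets for GC content and, for list medians, the covariate, RLE scaling and library totals without female mutant 3. A few genes that these rules pick are not reported here.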

Additional observations from a re-analysis of the deposited data

How the results depend on the processing

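With all libraries, the 0 calls in females became 6 with DESeq2 (5 higher, 1 lower), 4 with library weights and 2 with no filter, and stayed at 0 when any 1 library was left out. Without female mutant 3, they became 15 with DESeq2, 1 with library weights, 2 in the female libraries alone and 258 with no filter (150 higher, 108 lower). Of these 258 genes, 250 were also tested in the filtered set, and the median prior degrees of freedom were 178 with no filter and 5.17 with it. Leaving out 1 further library gave 0 to 19, with 19 without female mutant 6, 1 without female mutant 1 and 1 without male wild type 13; without female mutant 1 or 6 the mutant arm is 1 mouse, assumed to vary like the other groups. The difference between the sexes gave 4 with DESeq2 in both fits. With all libraries it gave 1 with library weights, 1 with no filter and 0 to 1 when 1 library was left out. Without female mutant 3 it gave 263 with no filter (123 higher, 140 lower) and 0 to 3 when 1 library was left out, the 3 and the 1 both without female mutant 6, where the 3 again rests on 1 female mutant. GC offsets and the mitochondrial covariate left all 4 counts at 0.

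Of 89 named genes, 22 had a female log2 fold change over 1.5 times as large with female mutant 3 as without it, 1 (C4b) was smaller by over that ratio and 1 (Tbl1x) differed in sign. Signs turned for 2 named genes. With all libraries, Tbl1x (0.14) gave -0.002 with library weights, -0.10 by library totals, -0.09 with the mitochondrial covariate and -0.01 to 0.22 when 1 library was left out, the lowest without female mutant 3. C4b (0.16) gave -0.12 to 0.48 when 1 library was left out, with -0.12 and -0.01 without female mutants 1 and 6. Without female mutant 3, leaving out 1 further library gave -0.03 to 0.01 for Tbl1x (0.01 without female wild type 5). The cause was not tested. No paired analysis was possible because each animal carries its own number and the labels do not give the litters. Shallow depth in female mutant 3 limits what its low genes can show.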
